A study of Mus musculus with 12 samples.

Results

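The 10 plasma cell genes listed here were followed across 12 RNA sequencing libraries of mouse bone marrow: Mzb1, Sdc1, Tnfrsf17, Tnfrsf13b, Derl3, Irf4, Pou2af1, Slamf7, Txndc5 and Eaf2. They were taken by name as genes known from plasma cells, but with earlier results of these data already known. All 10 were found among the 28987 genes of the deposited table by their Ensembl identifiers. The series is about stem and progenitor cells and mature myeloid cells of mutant clones in myelodysplastic disease. Haematopoietic stem and progenitor cells (HSPC) were enriched on CD117, the KIT receptor, in 4 genotypes: wild type, CBL mutant, RUNX1 mutant, and the CBL/RUNX1 combination, called double mutant here. Ly6G+ cells, a mature myeloid population sorted by flow cytometry, were taken in the wild type and double mutant genotypes. All mice were of the C57BL/6 background, and each of the 6 groups holds 2 libraries. The labels say that marrow came from individual mice and that the mutant clone was sorted. They do not say which alleles were used, how the mutations were introduced, how the clone was marked or how old the mice were. The CBL protein tags activated receptors with ubiquitin for removal, and RUNX1 binds DNA to direct the making of blood cells.

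Plasma cells are the antibody-secreting end stage of the B cell lineage, and bone marrow is where long-lived ones settle. Their differentiation depends on the transcription factors IRF4, BLIMP-1 (Prdm1) and XBP1, which build an enlarged endoplasmic reticulum that folds and exports immunoglobulin. Their survival in marrow depends on the cytokines BAFF (Tnfsf13b) and APRIL (Tnfsf13), which are read by the receptors BCMA (Tnfrsf17), TACI (Tnfrsf13b) and BAFF-R (Tnfrsf13c). None of the sorted populations was labelled as plasma cells.

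Values are TPM, the share of a gene among the transcripts of a library after correction for length, scaled to a fixed total, so levels of different genes can be set side by side. No read numbers accompany the values, so sequencing depth is unknown. A fold change is the difference of group means of log2(scaled TPM + 1). The scaling, a trimmed mean of log ratios (TMM), sets the bulk of genes level between libraries, and the added 1 compresses changes of genes near or below 1 TPM. Without the scaling, the median gene of the HSPC fit stood above wild type by 0.33 (CBL mutant), 0.45 (RUNX1 mutant) and 0.56 (double mutant). These values are on the log2 scale, and the double mutant value in Ly6G+ cells was 0.58. Differences were tested with limma, and a gene is called when its p-value, adjusted over the whole set of tested genes (Benjamini-Hochberg), is under 0.05.

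The labelled cell types were checked against their markers before the members were read. Stem and progenitor markers (Kit, Cd34, Flt3 and 5 others) summed to 105 to 865 TPM in the 8 HSPC libraries, while 9 neutrophil markers summed to 86849 to 345516 TPM. The HSPC libraries thus held much neutrophil RNA, most of it S100a8 and S100a9. In the RUNX1 mutant HSPC group, library 1 had 229 TPM of Kit and library 2 had 26.2 TPM. In the double mutant Ly6G+ group, library 1 stood apart, with a neutrophil marker sum of 85116 TPM against 311093 TPM in library 2. Plasma cell RNA was plain in the wild type libraries: Jchain, the joining chain of secreted antibody, was at 1204 and 1138 TPM in HSPC, and 7 immunoglobulin constant genes summed to 41988 and 43447 TPM. In such bulk samples, fewer cells of a type and less RNA per cell cannot be told apart.

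Of 4 members, Derl3, Pou2af1 and Tnfrsf17 lay below wild type in double mutant HSPC and Ly6G+ cells, and Tnfrsf13b lay above. The sequences in front of these 4 members are shown because the factors that drive plasma cell genes have known recognition letters. They are the 250 bases before the RefSeq start of Derl3, Pou2af1, Tnfrsf17 and Tnfrsf13b (assembly GRCm38.p6, all on the plus strand), at chr10:75893148-75893397, chr9:51213440-51213689, chr16:11313559-11313808 and chr11:61126505-61126754. Capitals mark CCACG, the core of the endoplasmic reticulum stress element, on either strand (CGTGG on the printed one), and TGACGTGG, an element bound by XBP1, which contains CCACG in reverse.
Derl3: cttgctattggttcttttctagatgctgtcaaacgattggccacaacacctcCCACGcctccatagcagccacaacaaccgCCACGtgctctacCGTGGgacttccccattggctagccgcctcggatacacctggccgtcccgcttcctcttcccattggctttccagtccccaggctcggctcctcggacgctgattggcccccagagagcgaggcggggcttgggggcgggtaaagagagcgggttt
Pou2af1: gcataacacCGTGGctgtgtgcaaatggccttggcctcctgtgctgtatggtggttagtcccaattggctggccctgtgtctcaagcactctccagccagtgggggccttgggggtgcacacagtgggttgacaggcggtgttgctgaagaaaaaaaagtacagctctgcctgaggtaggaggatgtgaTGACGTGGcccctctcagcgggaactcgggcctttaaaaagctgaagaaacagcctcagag
Tnfrsf17: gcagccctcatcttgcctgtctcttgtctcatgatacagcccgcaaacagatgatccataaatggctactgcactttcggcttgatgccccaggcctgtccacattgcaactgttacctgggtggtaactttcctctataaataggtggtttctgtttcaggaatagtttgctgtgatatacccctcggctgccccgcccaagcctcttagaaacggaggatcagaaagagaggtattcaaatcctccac
Tnfrsf13b: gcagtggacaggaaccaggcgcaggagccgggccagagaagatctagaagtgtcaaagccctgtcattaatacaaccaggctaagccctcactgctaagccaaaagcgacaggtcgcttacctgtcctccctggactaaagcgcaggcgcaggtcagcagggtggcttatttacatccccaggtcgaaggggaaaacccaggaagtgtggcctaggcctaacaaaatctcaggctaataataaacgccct
The Derl3 window holds 3 copies of CCACG, 198, 169 and 156 bases before the start. The Pou2af1 window holds TGACGTGG 61 bases before the start and a separate CGTGG 241 bases before it. The windows of the receptor genes Tnfrsf17 and Tnfrsf13b hold neither.

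CCACG was present in 6 of 13 windows of the members (5 of 9 members), against 28.3% of all 32851 windows of that length. TGACGTGG was present in 2 of 13 (Pou2af1 and 1 of 3 Txndc5 windows), against 0.563% of all windows. The octamer ATTTGCAT, read by OCT factors with the Pou2af1 product, was present in 0 of 13, against 1.6% of all windows. The motif GGAANNGAA, a composite site of ETS factors and IRF4, was present in 1 of 13 (Txndc5), against 6.99%. Both strands were searched, and Txndc5 and Eaf2 have more than 1 window. A match is a description of letters, not of a bound site. Mzb1 was not part of this search.

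In double mutant HSPC, 5 of the 10 members were called lower than in wild type: Mzb1, Pou2af1, Tnfrsf17, Irf4 and Sdc1, and none was called higher. Among all 12421 genes tested, 11.1% were called, 6.54% lower and 4.56% higher. The 5 others were not called, and their adjusted p-values in limma ran from 0.0518 to 0.0807. The median of the members was -1.66 on the log2 scale, beside 0.02 for all genes tested. Since the members were chosen with earlier results known, figures set beside all genes describe the list and do not test it. Tnfrsf17, Irf4 and Eaf2 entered the test only through the wild type libraries, the only HSPC libraries in which they reached 1 TPM, so those members could be tested only because they were high there. In scaled TPM, 9 members had both double mutant libraries below both wild type libraries and 1, Tnfrsf13b, had them above, beside 34.5% of all genes below and 36.6% above. Without either wild type library, Tnfrsf17, Irf4 and Eaf2 failed the filter and were not tested. No call of a member remained when either wild type or either double mutant library was left out. Some calls were lost without either CBL mutant library. The share of all genes called fell as well in each of these fits. Without either RUNX1 mutant library more members were called, Tnfrsf13b higher and the others lower, and the share of all genes called rose too. Without scaling, 4 members were called lower and 1 higher, beside 35.3% of all genes.

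**Figure D1:**
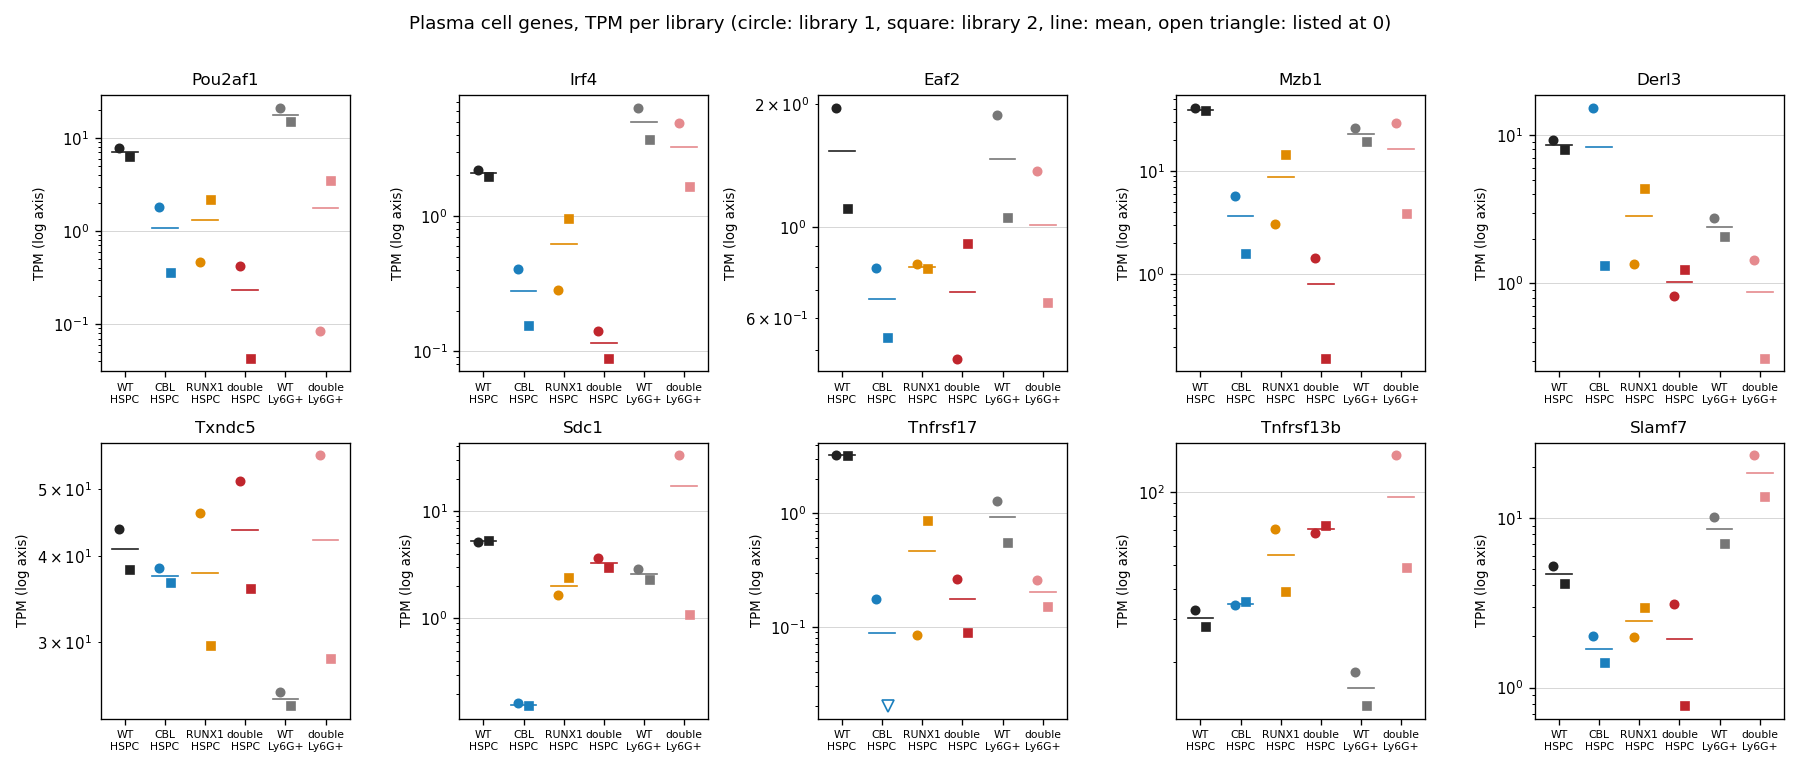
TPM of the 10 members (log axis, scale set per gene) in every library, by group; circles are library 1, squares library 2, lines the group mean, and the open triangle a value listed at 0. Mzb1 lies at 40.7 and 37.8 TPM in wild type HSPC and at 1.45 and 0.153 TPM in double mutant HSPC, while Tnfrsf13b lies higher in both double mutant groups than in their wild type groups.

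Among the transcription regulators, Pou2af1 was the most changed. Its product, OCA-B, is a coactivator of OCT factors at immunoglobulin promoters; the gene (ENSMUSG00000032053) lies at chr9:51213708-51240080 on the plus strand. It was at 7.85 and 6.18 TPM in wild type HSPC, 1.8 and 0.356 TPM in CBL mutant, 0.464 and 2.15 TPM in RUNX1 mutant and 0.423 and 0.0426 TPM in double mutant HSPC. Every mutant library was below both wild type libraries. The double mutant difference was -3.11 ± 0.49 (SE; log2, adjusted p = 0.0217 in limma), and the single mutant differences of -2.39 (CBL mutant, adjusted p = 0.137) and -2.27 (RUNX1 mutant, adjusted p = 0.172) were not called. Wild type Ly6G+ cells had 21.0 and 14.7 TPM, the highest values of the gene in the series.

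Irf4 (ENSMUSG00000021356, chr13:30749226-30766976, plus strand) encodes the interferon regulatory factor that plasma cells need throughout their life. Its levels were low in every HSPC library: 2.21 and 1.95 TPM in wild type, 0.405 and 0.154 TPM in CBL mutant, 0.282 and 0.956 TPM in RUNX1 mutant and 0.142 and 0.0881 TPM in double mutant cells. The double mutant group fell by 1.77 ± 0.29 (SE) on the log2 scale (adjusted p = 0.0231 in limma), and all mutant libraries were under 1 TPM. Irf4 was thus tested only because it was high in the wild type libraries. The added 1 sets the size of this difference, which was -0.60 with 5 added and -3.86 with 0.1 added. Irf4 was higher in wild type Ly6G+ cells (6.31 and 3.65 TPM) than in wild type HSPC with no overlap, a difference of 0.94 that was not called (adjusted p = 0.0559 in limma).

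Eaf2 (ENSMUSG00000022838) encodes a partner of the ELL elongation factors and lies at chr16:36792884-36875003 on the minus strand, where it overlaps Iqcb1 on the other strand. It was near 1 TPM throughout, at 1.95 and 1.11 TPM in wild type HSPC and between 0.477 and 0.910 TPM in the 6 mutant HSPC libraries. Its double mutant difference of -0.90 ± 0.26 (SE) was not called (adjusted p = 0.065 in limma). Eaf2 too was tested in HSPC only because it was high in the wild type libraries. The labels do not state whether the libraries keep the strand. Reads from transcripts that overlap on opposite strands may therefore not be told apart. This may concern Eaf2, Txndc5 (with Bmp6), Slamf7 (with the antisense gene Gm37787) and Tnfrsf13b (with the pseudogene Gm12269). Only whole gene spans were compared, and whether exons overlap was not checked.

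Among the genes of the endoplasmic reticulum, Mzb1 fell most. Its product is a resident of that compartment that assists the assembly and secretion of antibody, and it is also made in marginal zone B cells. The span of the gene (ENSMUSG00000024353) overlaps that of the protein-coding gene SPATA24 on the same strand. Whether their exons overlap was not checked, so the assignment of reads there may be uncertain. It was at 40.7 and 37.8 TPM in wild type HSPC, 5.75 and 1.56 TPM in CBL mutant, 3.04 and 14.3 TPM in RUNX1 mutant and 1.45 and 0.153 TPM in double mutant HSPC. No mutant library reached the wild type range, and both double mutant libraries lay below all other HSPC libraries. The wild type mean was 49.1 times the double mutant mean in TPM (256.7 times without double mutant library 1 and 27.1 times without library 2), and the tested difference was -5.07 ± 0.78 (SE; log2, adjusted p = 0.0202 in limma). The CBL mutant (-3.67, adjusted p = 0.148) and RUNX1 mutant (-2.84, adjusted p = 0.227) differences were not called. The difference between double and RUNX1 mutant cells, -2.23, was not called either (adjusted p = 0.114), except without RUNX1 mutant library 1 (adjusted p = 0.0163).

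Derl3, a channel component for the removal of misfolded proteins (ENSMUSG00000009092, chr10:75893413-75895941, plus strand), had 9.27 and 7.91 TPM in wild type HSPC and 0.818 and 1.23 TPM in the double mutants. RUNX1 mutant libraries held 1.34 and 4.31 TPM, and the CBL mutant libraries lay on both sides of wild type, at 15.2 and 1.32 TPM. CBL mutant library 1 also had all 8 B cell precursor markers at 1 TPM or more, against 5 in library 2; their part in the Derl3 value was not tested. The double mutant difference of -2.72 ± 0.87 (SE) was not called (adjusted p = 0.0807 in limma). A limma fit of the double mutant and wild type libraries alone, without the divided CBL mutant libraries, gave an adjusted p of 5.12e-05. In that fit all 10 members and 39.9% of all genes were called. No other alternative setting called Derl3.

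Txndc5, a thiol oxidoreductase of the protein disulfide isomerase family (ENSMUSG00000038991, chr13:38500079-38528824, minus strand), behaved unlike Mzb1 and Derl3. It had 43.8 and 38.1 TPM in wild type HSPC, 38.4 and 36.5 TPM in CBL mutant, 46.1 and 29.6 TPM in RUNX1 mutant and 51.4 and 35.8 TPM in double mutant HSPC. The groups overlapped in TPM, and the double mutant difference was -0.55 with scaling and 0.07 without it, neither called (adjusted p = 0.0574 and 0.835 in limma). Its direction therefore rests on the scaling.

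The surface proteins gave the most varied picture. Sdc1 encodes syndecan-1 (CD138), the proteoglycan used to identify plasma cells (ENSMUSG00000020592, chr12:8771323-8793715, plus strand). It was at 5.10 and 5.30 TPM in wild type HSPC, 0.163 and 0.154 TPM in CBL mutant, 1.64 and 2.36 TPM in RUNX1 mutant and 3.61 and 2.97 TPM in double mutant HSPC. The CBL mutant libraries were the lowest and the double mutant libraries stood between them and wild type, with no overlap between any pair of groups. Sdc1 was called lower in CBL mutant (-2.76 ± 0.26 SE, adjusted p = 0.00931 in limma) and in double mutant HSPC (-1.05 ± 0.26 SE, adjusted p = 0.0475). It was called higher in double mutant than in CBL mutant HSPC (1.71 ± 0.26 SE, adjusted p = 0.0236). Without scaling, the double mutant difference from wild type was -0.53 and was not called (adjusted p = 0.166).

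Tnfrsf17 (BCMA, ENSMUSG00000022496, chr16:11313812-11320074, plus strand) is the receptor most restricted to plasma cells. Wild type HSPC had 3.24 and 3.21 TPM. The CBL mutant libraries had 0.177 TPM and a listed 0, the RUNX1 mutant libraries 0.0843 and 0.849 TPM and the double mutant libraries 0.266 and 0.0888 TPM. All 6 mutant libraries were below 1 TPM, so the gene was tested only because it was high in the wild type libraries. The gene was called lower in CBL mutant (-2.28 ± 0.32 SE, adjusted p = 0.0342 in limma) and in double mutant HSPC (-2.20 ± 0.32 SE, adjusted p = 0.0174), and the RUNX1 mutant difference of -1.88 was not called (adjusted p = 0.141). The added 1 sets the size of these differences, since the mutant values lie under it.

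Slamf7, a receptor of the SLAM family that plasma cells share with natural killer cells (ENSMUSG00000038179, chr1:171632403-171653035, minus strand), had 5.21 and 4.09 TPM in wild type HSPC. It had 2.0 and 1.39 TPM in CBL mutant, 1.99 and 2.95 TPM in RUNX1 mutant and 3.10 and 0.778 TPM in double mutant HSPC. All mutant libraries were below wild type, yet none of the differences was called (double mutant -1.54 ± 0.40 SE, adjusted p = 0.0518 in limma). The natural killer cell gene Nkg7 was called lower in the same comparison (-4.74 ± 0.69 SE, adjusted p = 0.0181), and its part in the Slamf7 value was not tested.

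Tnfrsf13b was the member that went the other way, and it was singled out with that direction already known. It encodes TACI, the other receptor that binds both BAFF and APRIL, found on activated and marginal zone B cells as well as plasma cells (ENSMUSG00000010142, chr11:61126755-61149372, plus strand). It was at 32.6 and 27.7 TPM in wild type HSPC, 34.1 and 35.3 TPM in CBL mutant, 70.8 and 38.8 TPM in RUNX1 mutant and 67.9 and 72.8 TPM in double mutant HSPC. Both double mutant libraries lay above both wild type and both CBL mutant libraries, while RUNX1 mutant library 1 reached their range and library 2 did not. The double mutant mean was 2.34 times the wild type mean in TPM; after scaling the difference was 0.58 ± 0.15 (SE) and was not called (adjusted p = 0.0554 in limma), and without scaling it was 1.20 and was called (adjusted p = 0.0133). Against CBL mutant HSPC it was called higher (0.78 ± 0.15 SE, adjusted p = 0.0455). The CBL mutant difference from wild type was -0.20 with scaling and 0.20 without it.

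**Figure D2:**
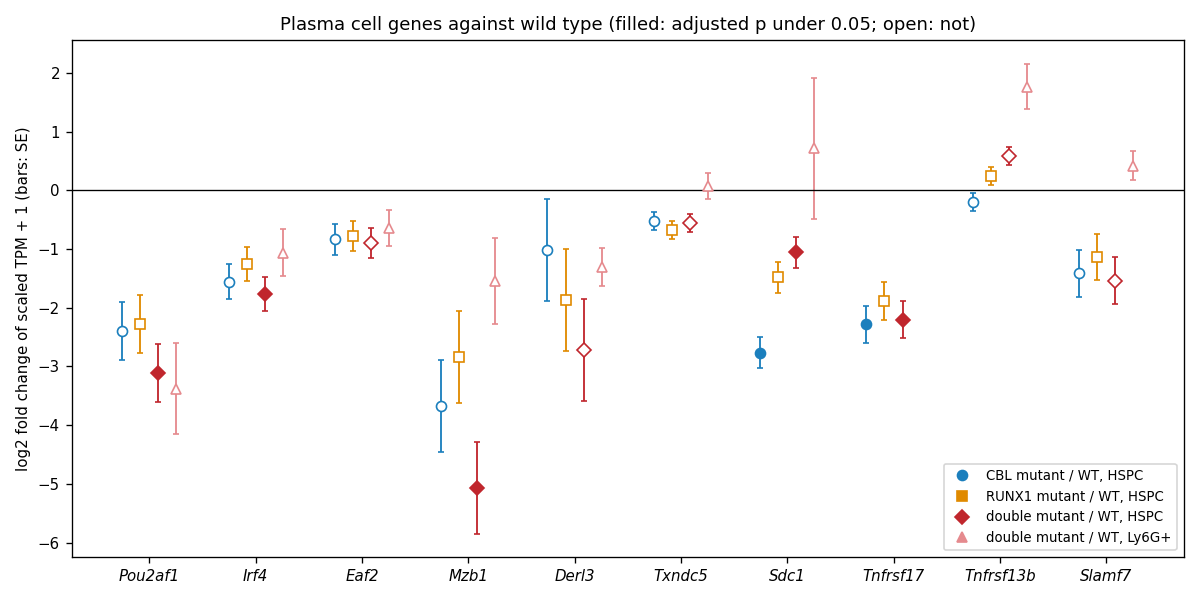
Log2 fold change of scaled TPM + 1 against wild type for each member in CBL mutant, RUNX1 mutant and double mutant HSPC and in double mutant Ly6G+ cells; bars are standard errors, and filled symbols have an adjusted p under 0.05. Filled symbols are the 5 members called lower in double mutant HSPC and Sdc1 and Tnfrsf17 in CBL mutant HSPC, while Tnfrsf13b stands at 0.58 in double mutant HSPC and 1.77 in double mutant Ly6G+ cells, both open.

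Over the single mutants, 2 of 10 members were called in CBL mutant HSPC, both lower (Sdc1 and Tnfrsf17), beside 0.556% of all genes, 0.242% lower and 0.314% higher. In RUNX1 mutant HSPC 0 of 10 were called, beside 0.0483% (0.0403% lower and 0.00805% higher); at an unadjusted p under 0.05 there were 2052 genes in all. Tnfrsf17, Irf4 and Eaf2 entered both tests only through the wild type libraries, the only HSPC libraries in which they reached 1 TPM. The counts, medians and numbers without overlap given here include these members, which could be tested only because they were high there. The medians of the members were -1.48 and -1.37 on the log2 scale, beside -0.02 and -0.03 for all genes. In scaled TPM, 9 of 10 members lay below wild type with no overlap in each single mutant (31.3% of all genes in CBL and 27% in RUNX1 mutant HSPC). None lay above in CBL mutant HSPC (25.5% of all genes), and 1, Tnfrsf13b, in RUNX1 mutant HSPC (22.1%). Neither call in CBL mutant HSPC remained when any wild type or CBL mutant library was left out. Tnfrsf17 was not tested without either wild type library, since it then failed the filter. The share of all genes called fell as well in the fits without a wild type or CBL mutant library. More members were called without either RUNX1 mutant library, where that share rose. In RUNX1 mutant HSPC members were called, all lower, only without RUNX1 mutant library 2, where the share of all genes called rose as well. Mzb1 stood at -4.00 in that fit. RUNX1 mutant library 2 had 15254 TPM of immunoglobulin constant transcripts, against 2716 TPM in library 1. The 3 mutant groups were all set against the same wild type libraries, so their values are not independent of each other.

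Directly between mutants, 2 of 10 members were called higher in double than in CBL mutant HSPC, Sdc1 and Tnfrsf13b, beside 3.67% of all genes called, 1.47% higher and 2.21% lower. Without scaling 1 of these, Sdc1, was called. Neither call held when any wild type, CBL mutant or double mutant library was left out in turn, and the share of all genes called fell as well. Between double and RUNX1 mutant HSPC, 0 of 10 were called, beside 9.09% of all genes (5.89% higher and 3.2% lower) and 3624 genes at an unadjusted p under 0.05. Without RUNX1 mutant library 1 that count was 4, beside 28.9% of all genes, with Tnfrsf13b higher and Mzb1, Irf4 and Pou2af1 lower.

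The BAFF and APRIL system was read as a whole because 2 of its 3 receptors are members. Tnfrsf13c, the receptor for BAFF alone, was at 1.57 and 1.31 TPM in wild type HSPC and 1.27 and 0.609 TPM in double mutant HSPC, and was not called (-0.71, adjusted p = 0.0915 in limma). The ligand gene Tnfsf13b (BAFF) was at 16.7 and 15.6 TPM in wild type, 11.8 and 17.6 TPM in CBL mutant, 0.767 and 14.6 TPM in RUNX1 mutant and 1.02 and 1.62 TPM in double mutant HSPC. The double mutant libraries lay far below wild type, and the RUNX1 mutant libraries split between those levels. The difference of -3.40 ± 0.94 (SE) was not called in the shared fit (adjusted p = 0.0597 in limma). The APRIL gene Tnfsf13 was lowest in CBL mutant HSPC, at 5.23 and 13.3 TPM against 31.0 and 29.1 TPM in wild type, and this was not called either (-2.12, adjusted p = 0.129). In double mutant HSPC, with 20.5 and 31.7 TPM, Tnfsf13 overlapped wild type.

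**Figure D3:**
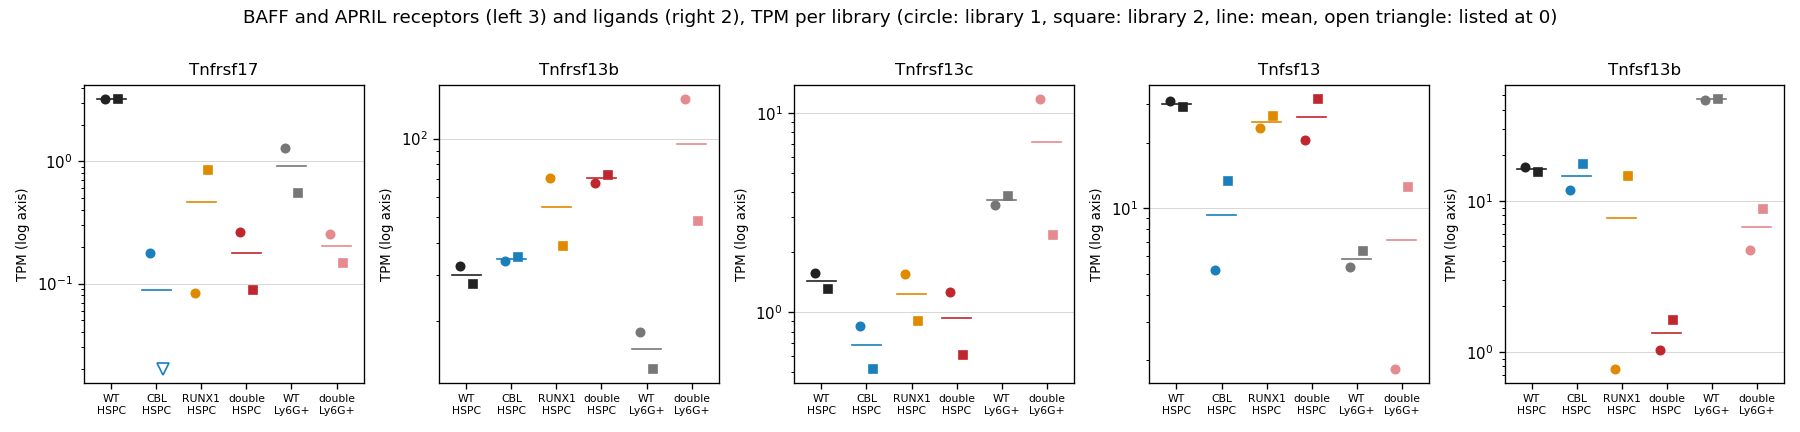
TPM (log axis, scale set per gene) of the receptors Tnfrsf17 (BCMA), Tnfrsf13b (TACI) and Tnfrsf13c (BAFF-R) and of the ligands Tnfsf13 (APRIL) and Tnfsf13b (BAFF) in every library; symbols as in the plot of the 10 members. In double mutant HSPC, BCMA and BAFF transcripts lie below the wild type libraries and TACI transcripts above them.

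Other genes of the plasma cell programme were taken from lists chosen with the earlier results known. Jchain fell in double mutant HSPC from 1204 and 1138 TPM to 0.604 and 0.911 TPM (-9.88 ± 0.68 SE, adjusted p = 0.00139 in limma), and in CBL mutant HSPC to 20.9 and 36.0 TPM (-5.78, adjusted p = 0.0232). The RUNX1 mutant libraries held 77.1 and 288 TPM and were not called (-3.51, adjusted p = 0.161). Of 7 immunoglobulin constant genes in the table, 6 were called lower in double mutant HSPC with a median of -8.65 over the list, led by Iglc2 (-8.62) and Ighg1 (-8.65), and 5 in CBL mutant HSPC. Ighg2c, also among the 6, was listed at 0 in both double mutant libraries. Near-identical copies within that family can share reads. Of 14 plasma cell regulators and surface genes tested from a list of 16, 2 were called lower, Jchain and Ell2, and none higher, with a median of -0.29. Ell2, the elongation factor that favours the secreted form of antibody transcripts, fell by 1.34 ± 0.21 (SE) (adjusted p = 0.0215).

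Not every gene tied to plasma cells followed. Xbp1 was abundant in all HSPC libraries, with 128 and 113 TPM in wild type and 150 and 160 TPM in double mutant cells, and was not called (-0.27 with scaling and 0.36 without, adjusted p = 0.243 with scaling). Prdm1 stayed below 1 TPM in all 12 libraries and was not tested. Of 28 endoplasmic reticulum secretory genes, all tested, 1 was called higher in double mutant HSPC (Prdx4, a peroxiredoxin, 1.68 ± 0.24 SE, adjusted p = 0.0174 in limma) and 1 lower (Dnajb9, an HSP40 cochaperone, -0.74 ± 0.15 SE, adjusted p = 0.0331), with a median of 0.10. Their summed level was 3289 and 3081 TPM in wild type and 5289 and 5807 TPM in double mutant HSPC. These sums are not scaled, and without scaling the median of all genes tested already stood 0.56 above wild type on the log2 scale.

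Relatives of the members were set beside them. Of 7 other IRF genes, 1 was called, Irf5, higher in double mutant HSPC (1.22 ± 0.23 SE, adjusted p = 0.0286 in limma); the median of the list was -0.39. No other gene was called among 6 SLAM family genes tested (median 0.64), 2 octamer factors, 2 syndecans or 4 relatives of Txndc5 and Derl3. The smallest p-values there were those of Cd84 (-0.57, adjusted p = 0.066) and Slamf8 (0.87, adjusted p = 0.115), Pou2f2 (0.89, adjusted p = 0.0632), Sdc4 (0.48, adjusted p = 0.31) and Derl2 (-0.51, adjusted p = 0.0504). Without scaling, Cd84 and Derl2 were at 0.04 and 0.10. Of 3 EAF and ELL genes tested, 1 was called lower, Ell2.

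Markers of other cells moved in the same libraries. Of 5 mature B cell markers tested from a list of 11, 2 were called lower in double mutant HSPC (Cd79a -3.76 and Bank1 -1.07), and the summed level was 51.4 and 44.7 TPM in wild type and 33.0 and 24.7 TPM in double mutant cells. Among 6 tested B cell precursor markers 0 were called, with Vpreb3 (-2.21, adjusted p = 0.108 in limma) first by p. Of 9 neutrophil markers, 7 were called lower, led by Ltf (-3.39), S100a9 (-2.54) and Ngp (-3.53). Of 5 T and natural killer cell markers tested, 2 were called lower (Ccl5 and Nkg7), and of 9 monocyte markers 0. Of 8 stem and progenitor markers, Cd34 was called higher (2.15) and Mecom lower (-5.62). Plasmacytoid dendritic cells, which secrete interferon and share several genes with plasma cells, had 1 of 5 tested markers called higher (Runx2, 1.19), with Siglech at no more than 2.67 TPM and Klk1 listed at 0 in all 8 HSPC libraries. The part of these cells in the members' values was not tested.

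**Figure D4:**
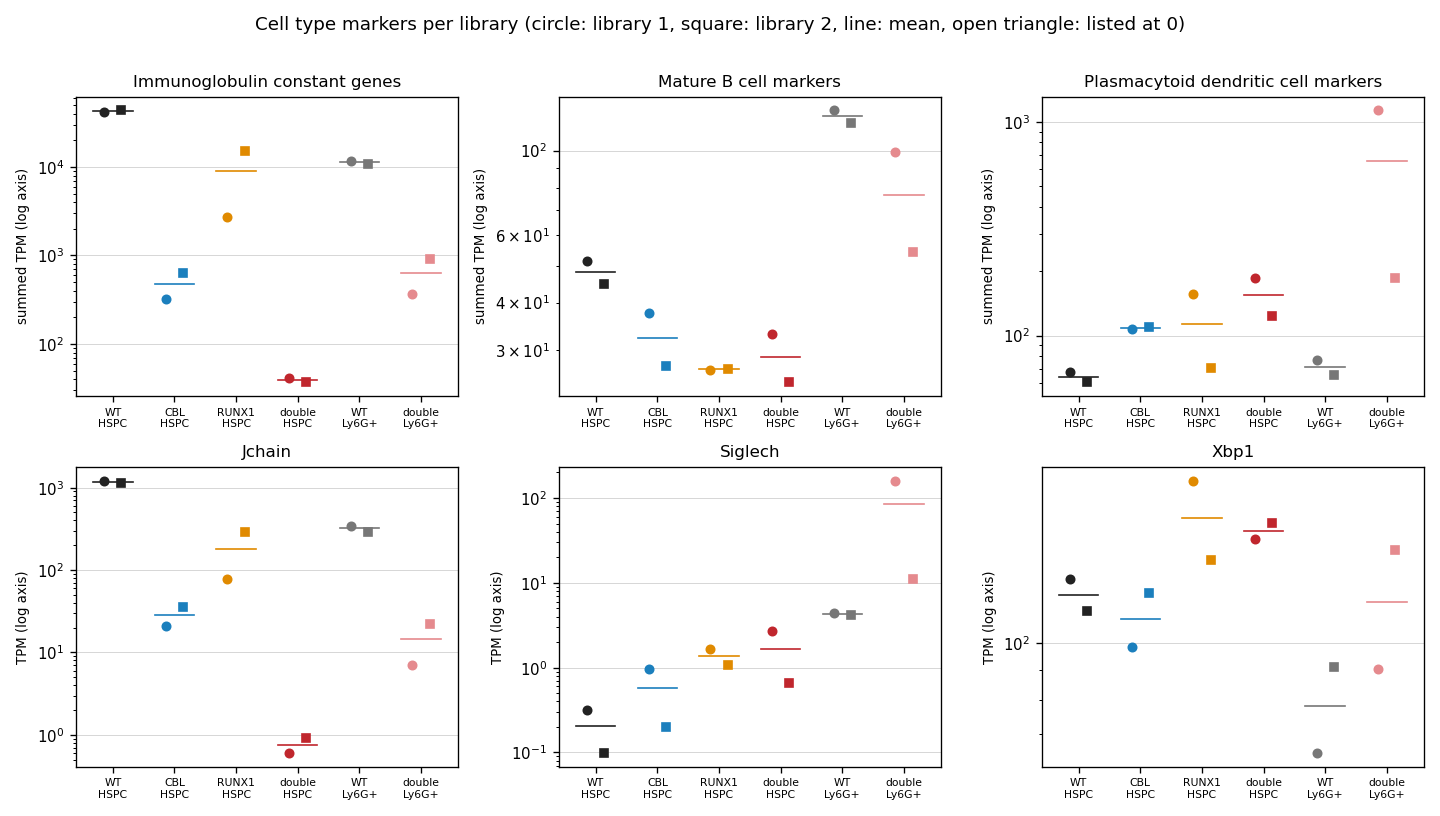
Summed TPM of 7 immunoglobulin constant genes, 11 mature B cell markers and 9 plasmacytoid dendritic cell markers (top), and TPM of Jchain, Siglech and Xbp1 (bottom), in every library on log axes; symbols as in the plot of the 10 members. Immunoglobulin transcripts and Jchain are lowest in double mutant HSPC, while plasmacytoid dendritic cell markers reach 1129 TPM in double mutant Ly6G+ library 1.

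In wild type Ly6G+ cells 3 of 10 were called lower than in HSPC and none higher, beside 39.1% of all 13155 genes called, 22.7% lower and 16.4% higher. These were Txndc5 (-0.75 ± 0.17 SE, adjusted p = 0.00904 in limma), Tnfrsf17 (-1.31, adjusted p = 0.0117) and Tnfrsf13b (-0.97, adjusted p = 0.0257). Pou2af1 (1.20, adjusted p = 0.197) and Slamf7 (0.73, adjusted p = 0.151) lay higher in both Ly6G+ libraries but were not called, and Mzb1 (-0.83, adjusted p = 0.472), Sdc1 (-0.88, adjusted p = 0.448), Derl3 (-1.60, adjusted p = 0.145) and Eaf2 (-0.07, adjusted p = 0.86) were not called. Mature B cell markers summed to 127 and 118 TPM in wild type Ly6G+ cells, against 51.4 and 44.7 TPM in HSPC. Jchain was at 346 and 293 TPM in Ly6G+ cells. Without scaling the count of 3 became 1, beside 24.3% of all genes. All 3 calls were lost without wild type HSPC library 2 or wild type Ly6G+ library 2, where the share of all genes called fell as well. More members were called without either double mutant Ly6G+ library, where that share rose.

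In double mutant Ly6G+ cells no member was called against wild type, and neither was any of the 11744 genes tested (0%), although 1656 genes had an unadjusted p under 0.05 in limma. Of the 10 members 9 were tested; Tnfrsf17, at 1.29 and 0.548 TPM in wild type and 0.257 and 0.148 TPM in double mutant cells, was too low. In scaled TPM 6 of the 10 lay below wild type without overlap and 2 above, beside 29.8% of all genes below and 32.9% above. In TPM as deposited, 3 lay below, 3 above and 4 overlapped: Mzb1, Irf4 and Eaf2 lay below only after scaling, and Txndc5 above only before it. Pou2af1 had the largest difference, with 0.0845 and 3.47 TPM against 21.0 and 14.7 TPM in wild type (-3.38 ± 0.78 SE, adjusted p = 0.29). Tnfrsf13b was again higher, at 142 and 48.5 TPM against 18.1 and 13.1 TPM (1.77 ± 0.39 SE, adjusted p = 0.276). Slamf7 lay at 23.4 and 13.3 TPM against 10.1 and 7.06 TPM, also above both wild type libraries (0.42 ± 0.25 SE, adjusted p = 0.411). Tnfsf13b was at 4.71 and 8.77 TPM against 46.6 and 47.4 TPM (-3.22, adjusted p = 0.258), and Jchain at 7.12 and 22.0 TPM against 346 and 293 TPM (-5.11, adjusted p = 0.253).

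For the other members, the double mutant Ly6G+ libraries often stood far apart. Mzb1 was at 28.9 TPM in library 1 and 3.85 TPM in library 2, against 26.3 and 19.1 TPM in wild type (-1.55, adjusted p = 0.381 in limma). Sdc1 was at 32.9 and 1.09 TPM, against 2.87 and 2.28 TPM in wild type, so that library 1 held the highest Sdc1 of the series and library 2 lay below wild type (0.72 ± 1.20 SE, adjusted p = 0.718). Irf4 was at 4.88 and 1.65 TPM against 6.31 and 3.65 TPM, and Txndc5 at 56.0 and 28.4 TPM against 25.4 and 24.2 TPM. Derl3 was at 1.44 and 0.311 TPM against 2.76 and 2.05 TPM, and Eaf2 at 1.37 and 0.653 TPM against 1.88 and 1.05 TPM. In TPM, both double mutant libraries were thus below wild type for Derl3 and above it for Txndc5, and the groups overlapped for Mzb1, Sdc1, Irf4 and Eaf2. In library 1 the 9 plasmacytoid dendritic cell markers summed to 1129 TPM, all at 1 TPM or more, against 187 TPM in library 2 and 76.5 and 65.5 TPM in wild type. Siglech was at 158 and 11.2 TPM, Cox6a2 at 123 and 5.72 TPM and Klk1 at 33.9 and 0.805 TPM in libraries 1 and 2, and the lymphoid progenitor gene Dntt at 789 and 15.1 TPM. The part of these cells in the members' values was not tested. Without library 1, 4 of 9 members were called, beside 11.2% of all genes: Mzb1 (-2.51, adjusted p = 0.0101), Pou2af1 (-2.29, adjusted p = 0.0144) and Derl3 (-1.48, adjusted p = 0.0348) lower and Tnfrsf13b higher (1.32, adjusted p = 0.0287). Without library 2, 4 were called as well, beside 61.2% of all genes: Pou2af1 (-4.44) and Derl3 (-1.05) lower, and Sdc1 (2.40) and Tnfrsf13b (2.19) higher.

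Whether the double mutation acted differently in HSPC and in Ly6G+ cells was tested as an interaction over all 12 libraries. Of the 10 members 0 were called, beside 0.0684% of all genes (0.0532% with a positive and 0.0152% with a negative term; 9 genes called and 1283 at an unadjusted p under 0.05 in limma). The term was 3.52 for Mzb1 (adjusted p = 0.376), 1.20 for Tnfrsf13b (adjusted p = 0.358) and -0.29 for Pou2af1 (adjusted p = 0.94). Without double mutant Ly6G+ library 2, the terms were 3.49 for Sdc1, 4.53 for Mzb1, 1.65 for Tnfrsf13b and 0.80 for Txndc5. Without library 1, they were 0.065 for Sdc1, 2.49 for Mzb1, 0.75 for Tnfrsf13b and 0.47 for Txndc5. The Sdc1 term, 1.78 over all libraries, thus rested largely on library 1.

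Profiles over the 12 libraries were compared among 9368 genes whose mean log2 level reached 2. Genes without a symbol, predicted genes and immunoglobulin heavy and light chain genes were left out of this search by rule. The genes nearest to Mzb1 were St6gal1, Cib2, Gsn, Cd79a and Mgll. Their root mean square difference from Mzb1 was 0.99 to 1.22 on the log2 scale, beside a range of 5.58 for Mzb1 itself. None of the genes searched followed it closely, and whether the immunoglobulin genes left out did was not examined. Tnfrsf13b had nearer neighbours, Fh1, Snx5, Nckipsd, Usp6nl and Nsa2, at 0.25 to 0.28, beside a range of 2.44. Fh1, for example, was at 21.8 and 18.6 TPM in wild type HSPC, 45.5 and 42.3 TPM in double mutant HSPC, 11.3 and 10.2 TPM in wild type Ly6G+ and 61.6 and 24.3 TPM in double mutant Ly6G+ cells.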

How the data were processed

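The deposited table, although named as counts, holds TPM: its values are not whole numbers and each library sums to between 933370 and 981994, over 28987 genes. The tools named are bcl2fastq, CASAVA 1.8 and kallisto, and the build is mm10, per the submitters' processing notes. The kallisto version, the annotation and the step from transcripts to genes are not given in the sources used here. A symbol was found for 27458 identifiers (94.7%).

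From these TPM, limma 3.58.1 in R 4.3.3 was run on log2(TMM-scaled TPM + 1), with unweighted TMM (trims of 0.3 and 0.05), group means, and trended, robust moderation, for genes with 1 TPM or more in at least 2 libraries of a fit. The HSPC fit held 8 libraries (4 residual degrees of freedom), the Ly6G+ fit 4 (2) and the fit of both 12 (6), so a difference is judged against a spread pooled over groups. The 8 comparisons are not adjusted for each other. A count model needs read counts and was not run. No 2 libraries were identical. Labels do not say that libraries of a group came from different mice in each case, so p-values measure the spread between these libraries.

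The members, gene lists and motifs were chosen with earlier results of these data known. All members are named. From each list, up to 3 called genes in each direction with the smallest p in a double mutant comparison are named, or, with none called, the 2 lowest in p, and Prdm1, Xbp1, Jchain, Tnfrsf13c, Tnfsf13 and Tnfsf13b are always given. Kit, Siglech, Klk1, Cox6a2, Dntt and Fh1, where printed, were picked for description after their values were seen. Profile likeness is the root mean square difference of centred log2 profiles. Gene positions are those of GENCODE M21 (GRCm38) and promoter windows those of RefSeq (GRCm38.p6). Replicate numbers in the titles were not taken as pairs. The code was tested on simulated data. Alternatives were other scalings, pseudocounts, filters, a replicate block, fits of the compared groups alone and leaving out each library.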

Additional observations from a re-analysis of the deposited data

Results flagged for a closer look

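Slamf7 was marked because its double mutant libraries lay below both wild type libraries in HSPC and above both in Ly6G+ cells. In HSPC it was at 3.10 and 0.778 TPM in double mutant and 5.21 and 4.09 TPM in wild type libraries. In Ly6G+ cells it was at 23.4 and 13.3 TPM in double mutant and 10.1 and 7.06 TPM in wild type libraries. The interaction of double mutation and cell type was 1.97 ± 0.53 (SE) on the log2 scale and was not called (adjusted p = 0.262 in limma; 0.0538 to 0.731 over its alternatives). It was positive under all 19 of them, but the rule that marked Slamf7 largely fixed this sign when a library was left out. The terms of Mzb1, Sdc1, Tnfrsf17, Tnfrsf13b, Derl3, Irf4 and Txndc5 also stayed positive under all their alternatives.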

How the results depend on the processing

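Leaving out 1 library at a time, the number of members called ran from 0 to 5 (CBL mutant against wild type HSPC), 0 to 7 (RUNX1 mutant), 0 to 9 (double mutant), 0 to 2 (double against CBL mutant), 0 to 4 (double against RUNX1 mutant), 0 to 4 (Ly6G+), 0 to 5 (wild type Ly6G+ against HSPC) and 0 to 4 (interaction). A group left with 1 library is assumed to vary like the others, and the share of all genes called moved widely in these fits as well. Without scaling, 1 member was called between double and CBL mutant HSPC and 1 between wild type populations, beside 3.74% and 24.3% of all genes. A pseudocount of 0.1 gave 1 in CBL mutant HSPC, beside 0.322%. A pseudocount of 5 gave 0 between double and CBL mutant HSPC and 5 between wild type populations, beside 2.96% and 38.3%. Without a filter, 1 was called in CBL mutant HSPC and 1 between double and CBL mutant HSPC, beside 0.399% and 1.14%. The filter at 5 TPM gave 1 in CBL mutant HSPC and 3 in double mutant HSPC, beside 0.472% and 14.6%. The 3 were Mzb1 and Pou2af1, lower, and Tnfrsf13b, higher (adjusted p = 0.049 in limma). Tnfrsf17, Irf4, Slamf7 and Eaf2 were not tested there, and Sdc1 was tested and lost its call (adjusted p = 0.0713). Fits of the compared groups alone gave 7 (CBL mutant), 10 (double mutant) and 9 (wild type populations), beside 7.4%, 39.9% and 72% of all genes. No such fit applies to Ly6G+ cells, whose fit holds only those groups, or to the interaction. RLE scaling kept every count within 1.5 times.

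Replicate numbers are shared by the titles, but the correlation of same-numbered deviations between HSPC groups was 0.0552 to 0.226. It was 0.2616 between the Ly6G+ groups and ran over all pairs of groups from 0.0172 to 0.5298 (RUNX1 mutant HSPC with double mutant Ly6G+). Not every pair passed 0.1, so the numbers were not taken as pairs. With the replicate block 1 member was called in CBL mutant HSPC, where Tnfrsf17 lost its call (adjusted p = 0.0784), and 1 between double and CBL mutant HSPC, where Tnfrsf13b lost it (0.0585). In double mutant HSPC the count stayed at 5, but Sdc1 lost its call (0.0511) and Txndc5 gained one (0.0482). The block changed no other call of a member.

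The sign turned for 25 of the members' values. Without scaling these were Tnfrsf13b in CBL mutant HSPC (0.20), Txndc5 in double mutant HSPC (0.069), and Slamf7 (0.011), Txndc5 (0.19) and Eaf2 (0.016) between double and CBL mutant HSPC. With a pseudocount of 0.1 it was the interaction of Pou2af1 (0.36). The others came from leaving out a library, and each range that follows covers every library left out in turn. The exceptions are Tnfrsf17 and Eaf2 in the HSPC fit, which were not tested without either wild type library. In CBL mutant HSPC, Derl3 ran from -2.42 to 0.40. Between double and CBL mutant HSPC, Slamf7 ran from -0.64 to 0.39, Txndc5 from -0.20 to 0.16, Eaf2 from -0.25 to 0.13 and Tnfrsf17 from -0.038 to 0.20. Between double and RUNX1 mutant HSPC, Tnfrsf17 ran from -0.72 to 0.11, Txndc5 from -0.047 to 0.31, Eaf2 from -0.31 to 0.074 and Slamf7 from -0.91 to 0.12. In Ly6G+ cells, Sdc1 ran from -0.93 without double mutant library 1 to 2.40 without library 2, and Txndc5 from -0.085 to 0.21. Eaf2 ran from -0.33 to 0.19 between wild type populations and from -0.0044 to 0.52 in the interaction, and Pou2af1 from -1.36 to 0.74 in the interaction. The cause was not tested. Read depth is unknown, and values under 1 TPM carry the least information.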
